A study of Mus musculus with 2 samples.

Results

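The Tdg peaks of mouse chromosome 17 were all rows of the deposited Bio-Tdg peak list that lie on this chromosome, 3547 of 72970 peaks or 4.86% of the list. They were mapped in bins of 1 Mb, and the major histocompatibility region, taken as 33600000 to 37500000 of the build mm9, was set beside the other peaks of the chromosome. A peak belonged to a bin or to the region by its midpoint. The region held 384 peaks and the rest of the chromosome 3163.

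Tdg, thymine DNA glycosylase, is a base excision repair enzyme that removes thymine or uracil mispaired with guanine, and also 5-formylcytosine and 5-carboxylcytosine, which Tet enzymes make from methylated cytosine. It thereby takes part in active DNA demethylation, and in embryonic stem cells that lack it the oxidised cytosines accumulate at gene regulatory elements. The major histocompatibility region is one of the most gene-rich parts of a mammalian genome. It holds the class I genes H2-K1 and H2-D1, whose products present peptides to T cells, and the class I groups H2-Q, H2-T and H2-M. The products of its class II genes (H2-Ab1, H2-Aa, H2-Eb1) present peptides to T cells on antigen-presenting cells. It also holds the peptide transporter genes Tap1 and Tap2 and the proteasome genes Psmb8 and Psmb9. Further members are the complement genes C2, Cfb and C4b, and the cytokine genes Tnf and Lta. Pou5f1, which encodes the pluripotency factor Oct4, lies among the class I genes. In the RefSeq annotation of the later build GRCm38.p6 the order from low to high coordinate is H2-K1, Psmb9, Tap1, Psmb8, Tap2, H2-Ab1, H2-Aa, H2-Eb1, C4b, Cfb, C2, Tnf, Lta, H2-D1, H2-Q1, Pou5f1, H2-T23, H2-M10.1, H2-M3 and H2-M2. The stretch from H2-K1 to H2-M2 holds 169 of the 1059 protein-coding genes listed there on chromosome 17, or 16.0%, of which 35 have H2 symbols and 16 are olfactory receptor genes. No mm9 gene positions were used here, so no peak is assigned to a gene and the limits of the region were not checked against genes. The stretch from H2-K1 to H2-M2 need not match the region analysed here. Its share of genes therefore cannot be set beside the region's share of peaks.

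The peaks came from 1 library of E14 mouse embryonic stem cells labelled Bio-Tdg (n = 1), in which Tdg carries a tag that is biotinylated in the cell and pulled down with streptavidin. The other library of the series came from E14 cells labelled BirA mock (n = 1), and no values of it were used here. No background can therefore be set beside the peaks, and replicate error is unknown for every value. Intervals are exact 95% intervals that cover counting error only, and clustering of peaks makes them too narrow. The score is the authors' value for each peak, used to describe and rank peaks within this list. For 3430 of the 3547 peaks the reads were recovered from score and width, and the other 117 had scores above the range in which this works (score-saturated peaks). Total depth is unknown.

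Peaks were spread very unevenly along chromosome 17. Between the first peak, which starts at 3079150, and the last, which ends at 95266278, the mean was 38.5 peaks per Mb, but the median 1 Mb bin held 18 peaks, with quartiles of 5 and 53, and the bins ranged from 0 to 188. The 26 of 93 bins with at least 50 peaks held 2636 peaks, or 74.3% of all on the chromosome. The emptier 46 bins together held 8.15%. The fullest bins were adjacent: 27000001 to 28000000 had 164 peaks, 28000001 to 29000000 had 174 and 29000001 to 30000000 had 188. The fourth, 35000001 to 36000000, lies inside the major histocompatibility region and had 161 peaks. The fifth, 56000001 to 57000000, had 152 and stood alone, with 3 peaks in the bin before it and 48 in the bin after it.

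**Figure D1:**
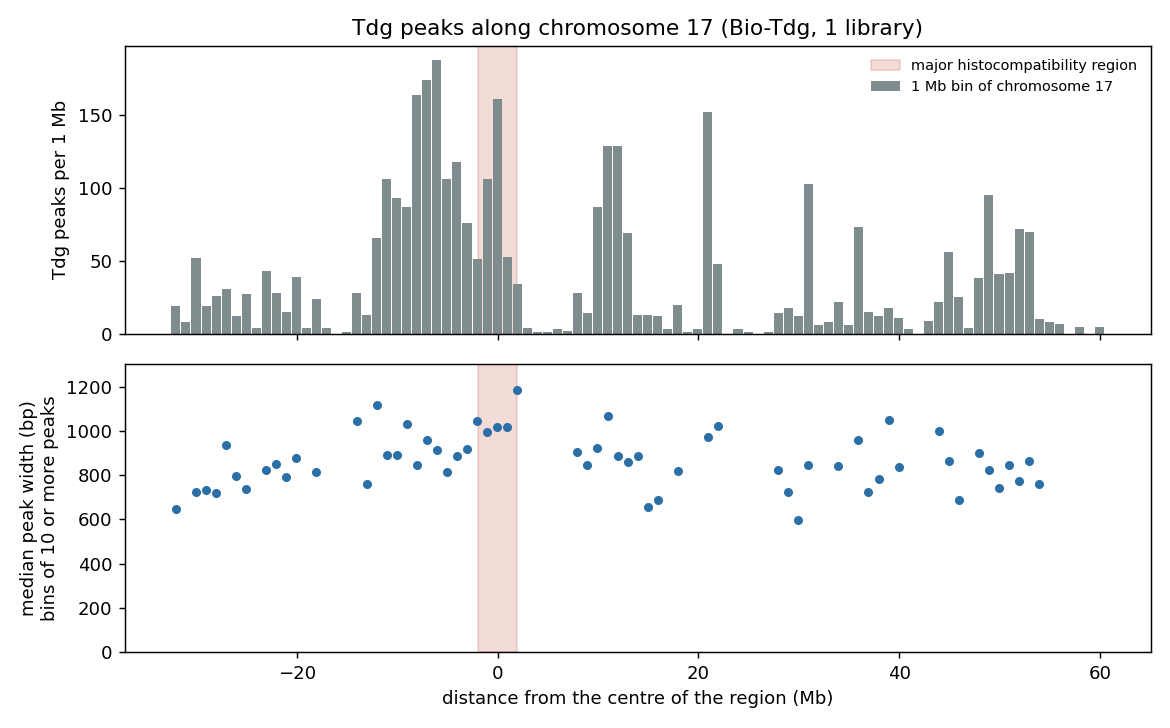
Upper panel: Tdg peaks in each of 93 bins of 1 Mb (bars), by distance in Mb from the centre of the major histocompatibility region (shaded). Lower panel: median peak width in bp (points) in the 61 bins of 10 or more peaks. The region sits at the end of a crowded block whose fullest bin has 188 peaks, and is followed by 5 bins of at most 4 peaks.

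Crowded bins formed blocks. The longest ran from 23000001 to 37000000, where each of 14 bins in a row held 51 to 188 peaks. This block had 1549 peaks, 43.7% of the chromosome's total, at 111 peaks per Mb, and peaks covered 12.9% of its sequence. The next block, 45000001 to 49000000, had 414 peaks at 104 per Mb in 4 bins. The other blocks were single bins or, from 87000001 to 89000000, a pair of bins with 142 peaks. Sparse bins also formed blocks. From 38000001 to 43000000, just beyond the major histocompatibility region, 5 bins held 11 peaks in all, and from 58000001 to 63000000 5 bins held 5. Across 92 pairs of adjacent bins, Spearman's rho of the peak numbers was 0.57, and for bins 5 apart it was -0.03. These bins share a library and a chromosome, so the values are given as a description without a p. The limits of 50 and 5 peaks for these blocks were chosen after seeing the data.

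When the mapped length was cut into 5 equal parts of 18.4 Mb, the parts held 362, 1622, 728, 326 and 509 peaks from low to high coordinate. The part from 21516575 to 39954000, with 45.7% of the peaks, contains the major histocompatibility region. The chromosome thus had no steady gradient from the low-coordinate end, where the mouse centromere lies. Median widths in the same order were 791, 936, 935, 835 and 796 bp.

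The first comparison set the major histocompatibility region beside the rest of the chromosome. The region had 98.5 peaks per Mb (interval 88.9 to 109), against 35.8 (34.6 to 37.1) in the rest, a ratio of 2.75 (2.47 to 3.06). It took up 4.23% of the mapped length and held 10.8% of the peaks and 12.3% of the bases covered by peaks. Peaks covered 12.5% of the region's sequence and 3.94% of the rest.

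The region did not stand apart from its own surroundings in the same way on both sides. Against the 3.9 Mb before it, which held 356 peaks or 91.3 per Mb, its density was 1.08-fold (0.931 to 1.25), an interval that contains equality. The nearest 0.5 Mb of that flank was sparser, with 9 peaks or 18 per Mb, and against it the density was 5.47-fold (2.85 to 12.05). Against the 3.9 Mb after the region, which held 9 peaks or 2.31 per Mb, its density was 42.7-fold (22.2 to 94.0). Against the whole crowded block before the region, from 23000001 to 33599999, with 1199 peaks or 113 per Mb, its density was 0.870-fold (0.774 to 0.977). That block was picked by bins of at least 50 peaks, so its high density follows from the choice. The interval cannot show that the region is sparser than crowded sequence in general. These neighbours were chosen as comparisons after seeing the data. Among the 805 windows of the region's length on the chromosome that do not overlap it, taken every 0.1 Mb and so overlapping each other, 78 or 9.69% held more peaks. All of these lay between 23300001 and 49600001. The fullest window, 27000001 to 30900001, had 619 peaks, and the median window apart from the region had 101.

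Within the region density changed over short distances. Of its 39 bins of 0.1 Mb, 18 held at least 10 peaks (46.2%), against 122 of 890 (13.7%) in the rest of the chromosome, and 3 were empty (7.69%), against 370 (41.6%). The median was 9 peaks per 0.1 Mb in the region, against 1 in the rest. From low to high coordinate, a first group of 6 bins from 33900001 to 34500000 held 90 peaks. The 2 bins after it had 2 and 3 peaks. The bin from 34700001 to 34800000 then held 20, and the following 2 bins held 4 each.

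Further along, 4 bins from 35000001 to 35400000 held 76 peaks, between 16 and 20 in each, and covered 26.1% of the sequence. The bin from 35600001 to 35700000 had 29 peaks, more than any other 0.1 Mb bin of the chromosome, where the fullest bin outside the region, from 28400001 to 28500000, had 28. Peaks covered 34.8% of it. In bases covered it was exceeded outside the region, since peaks covered 38.8% of the bin from 45700001 to 45800000. A group of 5 bins from 35800001 to 36300000 then held 73 peaks.

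The high-coordinate end of the region was different. The 4 bins from 36500001 to 36900000 held 1 peak between them, with 63 reads in 729 bp. Peaks returned in a smaller group, with 9 in the bin from 37000001, 15 in the bin from 37100001 to 37200000 and 5 in the next. The last bin, from 37400001, had 1 peak. By whole megabases, the region's part of 33000001 to 34000000 held 30 peaks, 34000001 to 35000000 held 106, 35000001 to 36000000 held 161, 36000001 to 37000000 held 53 and its part of 37000001 to 38000000 held 34.

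**Figure D2:**
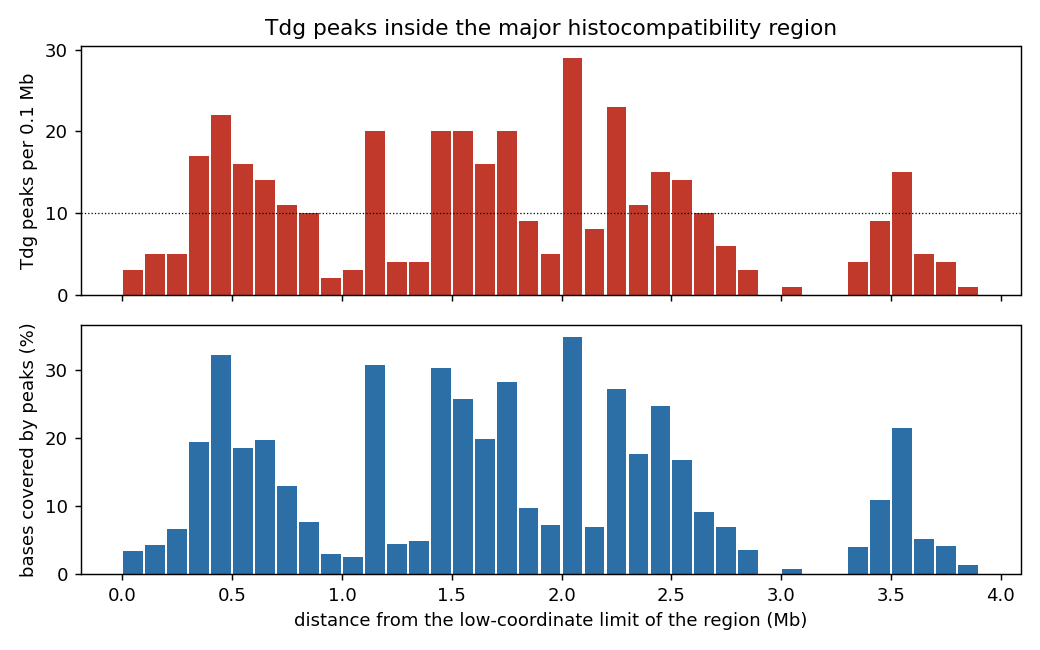
Tdg peaks (upper panel, bars) and percent of bases covered by peaks (lower panel, bars) in the 39 bins of 0.1 Mb of the major histocompatibility region, by distance in Mb from its low-coordinate limit. The dotted line marks 10 peaks. The fullest bin has 29 peaks and 34.8% of its bases covered, and 4 bins in a row near 3 Mb hold 1 peak together.

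Peaks of the major histocompatibility region were somewhat wider and held more reads than the others on the chromosome. Their median width was 1015 bp (946 to 1092), with quartiles of 672 and 1616 bp, against 870 bp (855 to 887) and quartiles of 623 and 1348 bp in the rest. A peak of the region was the wider in 56.8% of all pairs of a peak of the region with another of the chromosome, where 50 would be no difference. The median score was 741 in the region and 579 in the rest. Over the peaks with recovered reads, the median was 53 reads in 362 peaks of the region and 43.5 reads in 3068 peaks of the rest, and the median read density was 54.3 and 50.2 reads per kb. The 2 distributions overlapped over nearly their whole range, with widths of 500 to 5388 bp in the region and 403 to 7316 bp in the rest. No p is given, since the peaks share 1 library.

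Score-saturated and very wide peaks were also more frequent in the region. Of its peaks 22 or 5.73% (3.62 to 8.55) were score-saturated, against 95 or 3.003% (2.44 to 3.66) in the rest. Peaks wider than 3 kb made up 16 or 4.17% (2.40 to 6.68) of the region's, against 64 or 2.02% (1.56 to 2.58). The intervals of the 2 shares overlap slightly in both cases. Per Mb, score-saturated peaks were 5.24 times as dense in the region as in the rest (3.14 to 8.40) and peaks wider than 3 kb 5.66 times (3.05 to 9.91). These ratios include the 2.75-fold density of all peaks. The crowded block from 23000001 to 33599999 held 35 score-saturated peaks (2.92%) and 25 wider than 3 kb (2.09%) in 10.6 Mb, against 22 and 16 in the region's 3.9 Mb. The bin from 35000001 to 36000000 alone held 11 of the 22 and 8 of the 16. Without it the shares were 4.93% (2.49 to 8.65) and 3.59% (1.56 to 6.95), and the median width was 1014 bp (907 to 1158).

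Beside the crowded block before it, the region had fewer peaks per Mb but a higher median width. The 1199 peaks of that block had a median width of 902 bp (876 to 952), 46 reads and 51.4 reads per kb, and 2.92% (2.04 to 4.04) were score-saturated. The intervals of the median widths, 946 to 1092 bp in the region and 876 to 952 bp in the block, overlap slightly. A peak of the region was the wider in 54.9% of pairs with them. Against flanks of the same total length, the ratio of median widths was 1.07. Its interval of 0.996 to 1.15, which takes the median of the flanks as fixed, contains equality. When the lower-scoring peaks (under 1000) were left out, the median widths of the region and the rest differed by a ratio of 1.02, with an interval of 0.980 to 1.10 that takes the median of the rest as fixed. Score is tied to reads, and reads to width (rho 0.98). A limit on score therefore also selects on width in both groups, and can shrink a width difference by itself.

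**Figure D3:**
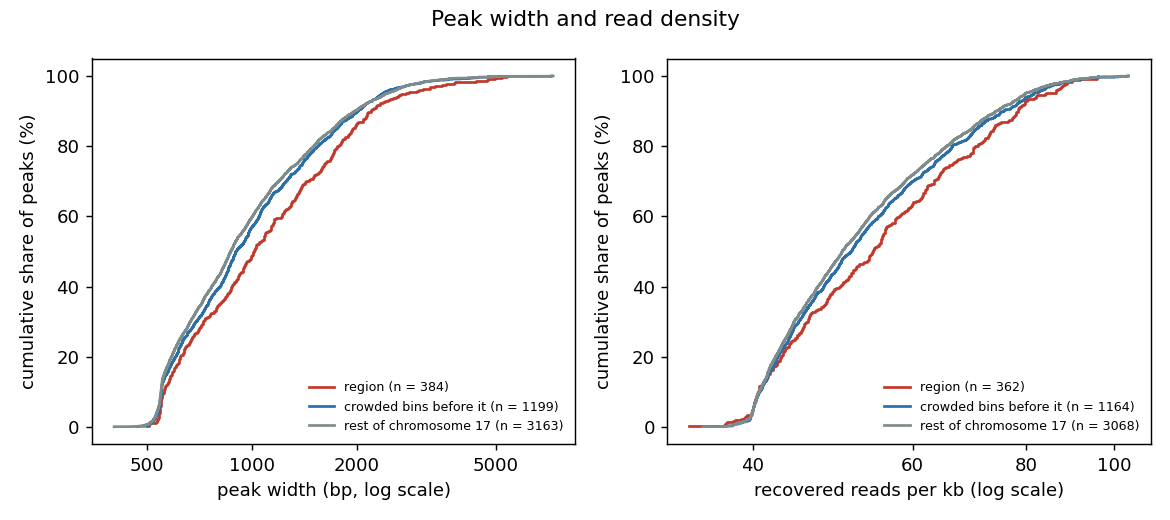
Cumulative share of peaks in percent by peak width in bp (left, log scale) and by recovered reads per kb (right, log scale), for the major histocompatibility region, the crowded bins from 23000001 to 33599999 and the rest of chromosome 17, which includes those bins. The line of the region lies to the right of the others over most of the range, with a median width of 1015 bp against 902 bp in the crowded bins and 870 bp in the rest.

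Along the whole chromosome, peaks in crowded bins were wider than peaks in sparse ones. In the 26 bins with 1 to 9 peaks the 105 peaks had a median width of 735 bp and a median of 34 reads. In the 35 bins with 10 to 49 peaks these were 830 bp and 40 reads, in the 14 bins with 50 to 99 peaks 895 bp and 46 reads, and in the 12 bins with 100 or more peaks 918 bp and 47 reads. The share of score-saturated peaks went the same way, at 1.90%, 2.48%, 3.10% and 3.91%. Across the 61 bins with at least 10 peaks, Spearman's rho was 0.53 between the number of peaks and their median width and 0.33 between the number and the median reads per kb, given as a description since bins share 1 library. Reads and width were themselves closely tied, with a rho of 0.98 over 3430 peaks.

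Single peaks are named by width, read density and score. The widest of the chromosome ran from 71196853 to 71204168, 7316 bp, in a bin of 73 peaks. The second, 30742908 to 30750133, was 7226 bp wide and closed the longest run described below. The third, 39979808 to 39985908, was 6101 bp wide and was the only peak in its 1 Mb bin, in the sparse block beyond the major histocompatibility region. The fourth, 63228629 to 63234079, had 5451 bp. The fifth, 34726302 to 34731689, had 5388 bp and lay in the region, where it was the widest. All 5 had the score of 3100, which 94 of the 117 peaks without recovered reads share.

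Within the region the next widest peaks were 34255841 to 34261045 at 5205 bp, 35640302 to 35645279 at 4978 bp, 36001027 to 36005780 at 4754 bp and 36052378 to 36057097 at 4720 bp. None of these has a recovered number of reads. Among peaks of the region with recovered reads, the most were 209 in the 2828 bp from 35047005 to 35049832. The peaks 34722699 to 34725102 and 34087031 to 34089307 had 202 each, and the peaks 35034697 to 35037238 and 34323545 to 34325631 had 200 each. The most reads recovered in any peak outside the region were 224. Score-saturated peaks have no recovered number, so neither maximum shows how many reads the strongest peaks held.

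Among peaks with recovered reads, the densest lay elsewhere. The first of these on the chromosome was 29573630 to 29574862 with 104 reads per kb, then 46888331 to 46889875 with 103. Next came 28362309 to 28363639, 26121773 to 26123450 and 64680560 to 64682283 with 101 each. These 5 were 1233 to 1724 bp wide, and none was in the region. The 117 score-saturated peaks, 22 of them in the region, have no read density and could not be ranked with them. By score the first was 15840949 to 15843599 with 3233, in a bin of 39 peaks. The next were 47838536 to 47841232 with 3219, 5491128 to 5493933 with 3218 and 28215877 to 28218971 with 3214. The fifth, 35371493 to 35374088 with 3199, was in the region and 2596 bp wide. Scores of this height lie at the limit of double-precision p-values and do not rank peaks by strength.

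The second description concerned runs, in which each peak starts less than 1 kb after the end of the one before it. The chromosome had 539 runs of 2 or more peaks, which took in 1307 peaks or 36.8%. In the major histocompatibility region 170 of 384 peaks were in runs, 44.3% (39.2 to 49.4), against 1137 of 3163 or 35.9% (34.3 to 37.7) in the rest. With peaks less than 2 kb apart joined, the shares were 62.0% (56.9 to 66.9) in the region and 49.95% (48.2 to 51.7) in the rest, and with 5 kb they were 83.9% (79.8 to 87.4) in the region and 69.3% (67.7 to 70.9) in the rest. There were 17.9 runs per Mb in the region and 5.31 in the rest. Runs were as dense in crowded bins outside the region. The 1 Mb bins from 23000001 to 33000000 held 6 to 42 runs each. Those from 34000001 to 37000000, inside the region, held 9 to 30. Most runs were pairs, 48 of 70 in the region and 325 of 469 in the rest. Runs of 4 or more peaks numbered 6 in the region and 36 in the rest. Median run length was 3204 bp in the region and 2834 bp in the rest.

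The longest run of chromosome 17 lay in the crowded block before the region, at 30731136 to 30750133. It held 7 peaks over 19.0 kb, of which peaks covered 85.2%. Its peaks were 544 to 7226 bp wide, and the 6 with recovered reads held 22 to 183 reads each. Runs of 7 peaks were also found at 46947429 to 46956454, over 9.03 kb, and at 45715441 to 45724054, over 8.61 kb. Both consisted of narrower peaks, the widest being 1747 bp in the first and 1665 bp in the second. The runs 56089892 to 56099344 and 46753583 to 46762912 had 6 peaks each.

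In the region no run had more than 5 peaks. Runs of 5 lay at 35620836 to 35628514, over 7.68 kb with 26 to 131 reads per peak, and at 34158315 to 34165605, over 7.29 kb with 25 to 145. A run of 4 followed the first of these closely, at 35637508 to 35647152. It contained the peak of 4978 bp named above, and both runs are in the bin of 29 peaks. The other named runs of 4 were 35368815 to 35374884 and 33959265 to 33964457. From one peak midpoint to the next the median distance was 4428 bp in the region (3738 to 5095), against 5976 bp (5600 to 6514) in the rest. In the crowded block before the region it was 4421 bp (4198 to 4770), and the interval of the region contains that of the block. Distances over 50 kb made up 1.83% in the region, against 9.11% in the rest. The crowded block before the region had a similarly low share, slightly below that of the region. Few long distances were thus not particular to the region.

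The third description concerned stretches without a peak. The chromosome had 145 such stretches of at least 100 kb, which together took up 55.9% of the mapped length, and 24 of at least 500 kb, which took up 27.6%. The longest was 60275773 to 62595965 at 2.32 Mb, followed by 76511776 to 78598964 at 2.09 Mb, 91674319 to 93602698 at 1.93 Mb, 38163988 to 39979807 at 1.82 Mb and 18667595 to 20435748 at 1.77 Mb. The fourth of these ended at the isolated peak of 6101 bp. The peak list does not mark assembly gaps or sequence to which reads cannot be assigned, and binding in such places was not measurable from it.

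No stretch of 500 kb or more lay within the major histocompatibility region. It held 4 stretches of at least 100 kb, 18.9% of its length, against 140 in the rest, 56.8% of its length. The longest in the region was 36622049 to 36972754 at 351 kb. It is separated by a single peak from another of 129 kb, at 36492801 to 36621319, which together form the near-empty part of the high-coordinate end. The third was 34536834 to 34673593 at 137 kb, between the first and second groups of crowded bins. At the high-coordinate limit a stretch of 598 kb, from 37408312 to 38006362, crossed the edge, and it is the first of the long stretches that follow the region. At the low-coordinate limit the stretch across the edge was 97.7 kb long.

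**Figure D4:**
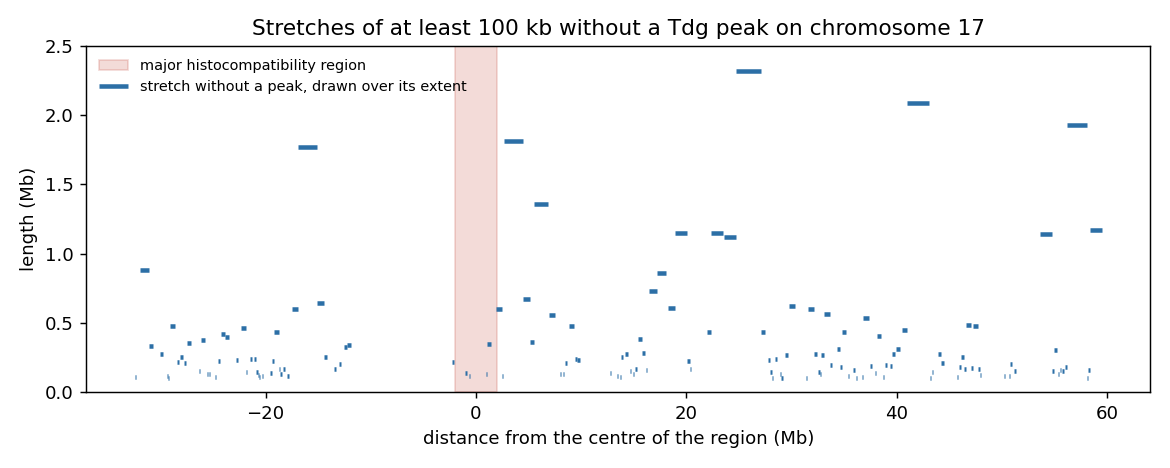
Length in Mb of each of the 145 stretches of at least 100 kb without a Tdg peak on chromosome 17, drawn over its extent by distance in Mb from the centre of the major histocompatibility region (shaded). The longest within the region is 351 kb, and the longest of the chromosome is 2.32 Mb.

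The final comparison set chromosome 17 beside the other autosomes of the same list. It had 38.5 peaks per Mb (37.2 to 39.8), against 29.7 (29.4 to 29.9) over the other 18 together, a ratio of 1.30 (1.25 to 1.34), and ranked after chromosomes 11 and 19. Peaks covered 4.30% of its length and 3.20% of that of the others. Its crowding lay in more very full bins. Bins of at least 100 peaks made up 12.9% of its 93 bins, against 6.01% of 2329 bins on the other autosomes, while the median bin was 18 on chromosome 17 and 16 on the others. Empty bins made up 6.45% on chromosome 17 and 7.77% on the others.

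Chromosome 17 was also near the upper end in the size of its peaks. Its median score of 593 was the highest of 19 by a narrow margin over the 592 of chromosome 7. Its median width of 883 bp was second to the 885 bp of chromosome 7, and the lowest was 823 bp on chromosome 1. The spread between autosomes was small, and a peak of chromosome 17 was the wider in 51.9% of pairs with a peak of another autosome. Peaks in runs made up 36.8% (35.3 to 38.5) on chromosome 17 and 32.8% (32.4 to 33.1) on the other autosomes, and chromosome 11 was higher with 38.1%. Neighbouring peaks lay closer together, with a median of 5740 bp (5430 to 6153) on chromosome 17, against 7290 bp (7192 to 7396) over the others, and chromosome 11 was closer at 5476 bp. Its longest stretch without a peak, 2.32 Mb, was shorter than those of 15 other autosomes.

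**Figure D5:**
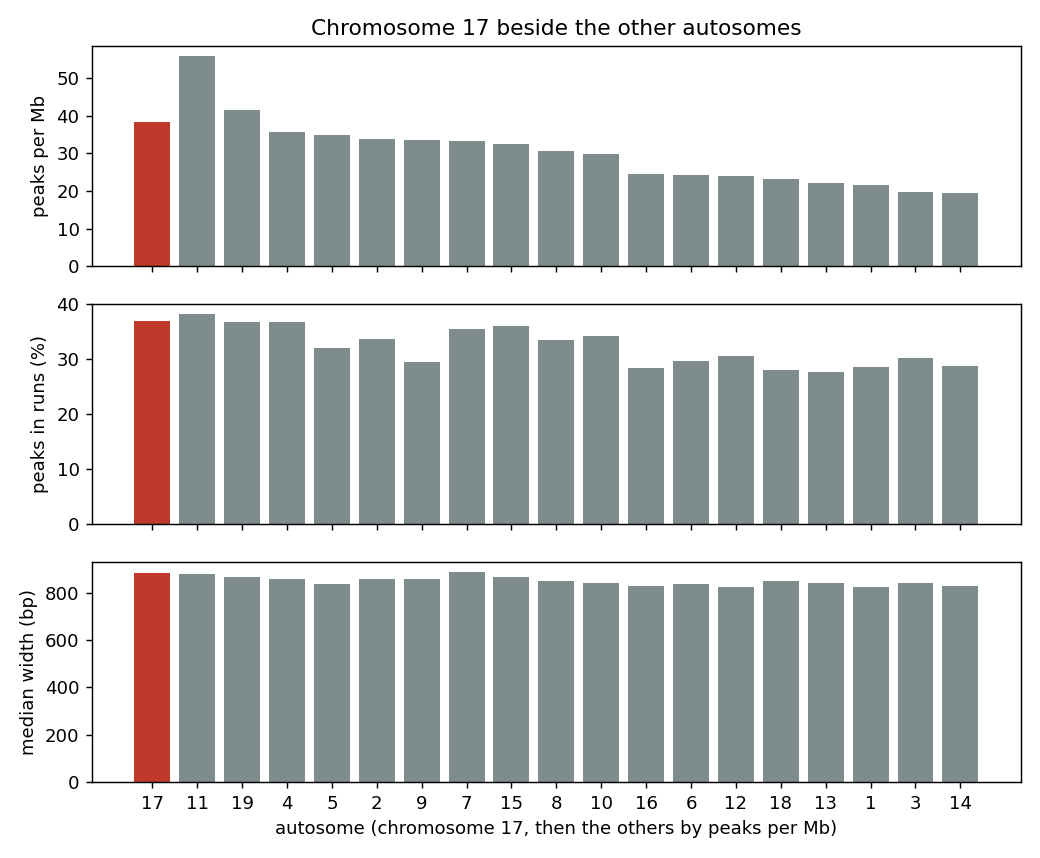
Peaks per Mb, percent of peaks in runs and median peak width in bp of chromosome 17 (left bar) and the other 18 autosomes, ordered by peaks per Mb. Chromosome 17 has 38.5 peaks per Mb, 36.8% of peaks in runs and a median width of 883 bp, and chromosome 11 is higher in the first 2 of these.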

How the data were processed

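The values are the start, end and score columns of the deposited Bio-Tdg peak list. Per the submitters' processing notes, the build was mm9 and the tools included MACS 1.4.1, Bowtie 0.12.7 and CASAVA 1.8. The role of each tool, the calling threshold, read filters and control were not given in the sources used here. The score is the authors' deposited value per peak. Mock values were not analysed here.

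Reads were recovered by fitting 1 background rate (1.13 reads per kb) at which each score is −10 times the log10 of a Poisson tail probability at a whole number of reads. Of 3430 peaks below the numerical limit of the score, 3430 lay within 0.01 score units, where 1 read moves the score by a median of 16.7. On simulated scores for chromosome 17 widths, 100% of 2991 peaks were recovered under a single rate and 0.0997% of 3009 lay within the tolerance under a varying one. Numbers are 1 higher if the caller counted differently.

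Density intervals are exact Poisson, ratios and shares use exact Clopper-Pearson intervals, and medians use order statistics. No test between samples was possible with 1 library per group. Members, region, comparisons and alternatives were chosen with earlier results of these data known. Named items followed a rule: the 5 widest, highest-scoring and most read-dense peaks, the region's 5 widest and 5 with most reads, the 5 fullest bins and those of the region, 5 runs each, and the longest stretches (5 on the chromosome, 3 in the region). Peaks and bins named by other features were picked after seeing their values. Sequences and genes at peaks need mm9 and were not used here. Tools were Python 3.11.15 with pandas 2.3.3, matplotlib 3.10.9, scipy 1.17.1 and numpy 2.4.6.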

Additional observations from a re-analysis of the deposited data

How the results depend on the processing

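The ratio of peak density in the major histocompatibility region to the rest of the chromosome (2.75) was 3.25 and 3.79 at scores of at least 500 and 1000, 2.05 after merging peaks less than 5 kb apart, 3.17 in bases covered, 2.22 with the region widened by 0.5 Mb on each side and 1.96 without stretches of at least 500 kb in the rest. It was 1.08 beside the low-coordinate flank, 42.7 beside the high-coordinate flank and, turned round, 0.870 beside the crowded block before the region, all chosen after seeing the data. The ratio of median widths (1.17) was 1.02 at scores of at least 1000, a limit that also selects on width. Against flanks of the same total length it was 1.07 (0.996 to 1.15), an interval that contains equality. The share of peaks in the fullest 10% of bins (37.2%) was 40.7% and 41.4% at scores of at least 500 and 1000, 35.2% and 25.8% after merging within 1 and 5 kb, 39.4% in bases covered, 35.0% in bins shifted by 0.5 Mb and 40.5% in bins of 0.5 Mb. Median spacing (5740 bp) was 9116 and 17395 bp at the 2 score limits and 8926 and 21254 bp after merging within 1 and 5 kb, which follows from fewer peaks. Stretches of at least 500 kb (24) numbered 40 at scores of at least 1000. The density ratio of chromosome 17 to the other autosomes (1.30) was 1.38 and 1.43 at the score limits, 1.25 and 1.14 after merging within 1 and 5 kb, 1.345 in bases covered and 1.36 without chromosome 11. For the changes without a stated reason the cause was not tested. A score of at least 100 removed no peak and says nothing about stability. No paired analysis was possible because a single library, Bio-Tdg, gave the values. Depth is unknown, no peak had fewer than 21 recovered reads, and weaker binding would not be seen.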
